A study of Mus musculus with 3 samples.

Results

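Macrophages from the lavage of Clec7a knockout mice (KO_DMSO) were compared with macrophages of wild-type mice given the kinase inhibitor GW5074 (WT_GW5074). A kept cell had at least 200 genes and at most 20% of its UMIs (unique molecular identifiers, each standing for 1 captured RNA molecule) from mt- genes. It counted as a macrophage with at least 0.5% of its UMIs from Lyz2, which encodes lysozyme. Resident macrophages had 2 or more UMIs summed over Car4, Krt79, Ear2 and Siglecf, and other macrophages had 0 or 1. These rules gave 20661 macrophages among 29434 kept cells of the KO_DMSO and WT_GW5074 libraries, of 42888 kept cells in all 3 libraries. The resident class held 3591 KO_DMSO and 4302 WT_GW5074 cells, and the other class 4438 and 8330.

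All mice received bleomycin into the airways, which injures the lung and leads to fibrosis, and cells were taken on day 14. The KO_DMSO mice lacked Clec7a and received DMSO, the solvent, the WT_GW5074 mice received the inhibitor, and the WT_DMSO mice, wild type with solvent, serve here only as a reference level. The lavages of a group were combined, and cells with CD11b or CD11c on their surface were sorted. The number of mice in a pool, their age, sex and strain, the dose of GW5074 and the exons removed in the knockout were not given in the sources used here. Each group is 1 library from 1 pool, so no test between groups was possible, and a difference in genotype or drug cannot be told apart from a difference between pools or runs. Intervals given below are exact 95% intervals that cover counting error only.

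Clec7a encodes Dectin-1, a C-type lectin receptor on myeloid cells that binds β-glucans of fungal cell walls. Its cytoplasmic tail signals through the kinase Syk and the adaptor Card9 towards NF-κB. GW5074 is a small-molecule kinase inhibitor. Resident alveolar macrophages live in the airspace and handle surfactant lipid, while injury brings in monocytes that become macrophages there.

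The 3 libraries held between 34859676 and 45462817 UMIs, and the macrophage classes of the KO_DMSO and WT_GW5074 libraries between 12269188 and 22775276. Median depth was 3273 UMIs in KO_DMSO and 2916.5 in WT_GW5074 resident macrophages, and 3174.5 and 2440 UMIs in the other class. The KO_DMSO and WT_GW5074 libraries shared 119 cell barcodes, 57 of them in macrophages, and results without all barcodes found in more than 1 library are given beside the gene counts. Summed levels of 20 resident alveolar macrophage markers in the resident class were 12129 CPM (counts-per-million, the UMIs of a gene scaled to the total of its class) in KO_DMSO and 11034 CPM in WT_GW5074. In the other class, 20 markers of monocyte-derived macrophages summed to 14161 and 13603 CPM. The resident class held 5441 and 5681 CPM of the monocyte-derived markers, and the other class 7063 and 6699 CPM of the resident markers. Both marker sets were thus well present in both classes, the resident set higher in the resident class and the monocyte-derived set higher in the other class. The 12 neutrophil markers summed to 412 and 433 CPM in the resident class and to 502 and 468 CPM in the other class, against 2246 and 3547 CPM in WT_DMSO. Ly6g was at 0 in both KO_DMSO classes. The markers of T cells, B cells, eosinophils, red cells and epithelium each summed to at most 144 CPM in the KO_DMSO and WT_GW5074 classes, and Prg2, Epx and Prg3 of eosinophils were at 0. Dendritic cell markers were higher and differed with the comparison. The 8 markers of conventional dendritic cells 1 summed to 718 CPM in KO_DMSO and 809 CPM in WT_GW5074 resident macrophages and to 708 and 846 CPM in the other class. Of 6 and 8 measured members 1 was at least 1.5-fold higher in KO_DMSO, Clec9a in each class, and none lower. Of all genes measured by the same filter, 0.922% and 1.05% were higher. The 8 markers of conventional dendritic cells 2 summed to 671 CPM in KO_DMSO and 937 CPM in WT_GW5074 resident macrophages and to 641 and 922 CPM in the other class, most of it from Sirpa, which macrophages also express. The 10 markers of migratory dendritic cells summed to 481 and 559 CPM and to 621 and 650 CPM, with 3 and 2 of 9 measured members at least 1.5-fold lower in KO_DMSO and none higher, beside 2.07% and 3.09% of all genes measured by the same filter. The 10 monocyte markers summed to 5177 CPM in KO_DMSO and 4931 CPM in WT_GW5074 resident macrophages and to 3433 and 3654 CPM in the other class. The parts of dendritic cells and monocytes in the results below were not tested.

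Resident macrophages made up 30.8% of kept KO_DMSO cells (30.01 to 31.7, Clopper-Pearson) and 24.2% of kept WT_GW5074 cells (23.6 to 24.8), a ratio of 1.28 (1.22 to 1.33). Other macrophages made up 38.1% (37.2 to 39.0) and 46.8% (46.1 to 47.6), a ratio of 0.814. The share of the resident class was thus higher, and that of the other class lower, in KO_DMSO than in WT_GW5074 beyond counting error. In WT_DMSO the shares were 14.7% and 19.6%, and macrophages of both classes together were 34.3% of kept cells there, against 69.0% in KO_DMSO and 71.0% in WT_GW5074. Taken as a share of macrophages alone, the resident class was 44.7% in KO_DMSO, 34.1% in WT_GW5074 and 42.7% in WT_DMSO. By that measure WT_DMSO was closer to KO_DMSO. Sorting and the depth of cells can set such shares. With every cell thinned to 1000 UMIs the resident class was smaller, at 12.97% of 10676 KO_DMSO and 9.75% of 15756 WT_GW5074 cells deep enough to thin, and the order of the libraries was the same. The line between the classes ran through many cells: 18.7% of KO_DMSO and 20.2% of WT_GW5074 macrophages had 1 UMI over the 4 genes, and 12.99% and 12.6% had 2.

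Clec7a itself was checked first. In resident macrophages it was at 13.9 CPM in KO_DMSO, 871 CPM in WT_GW5074 and 790 CPM in WT_DMSO, so the knockout library was 62.5-fold lower than the GW5074 library (53.7 to 73.1). In other macrophages the levels were 12.1, 708 and 578 CPM, a 58.4-fold difference (50.2 to 68.2). The receptor's own transcript was therefore nearly gone with the knockout and present, slightly above WT_DMSO, under the inhibitor. A UMI of Clec7a was found in 4.51% of KO_DMSO and 84.5% of WT_GW5074 resident macrophages. In T cells, which should lack it, the shares were 0 of 183 cells in KO_DMSO, which by a limit of 3 counts allows up to 1.64%, and 9.35% of 139 cells in WT_GW5074, with median depths of 1166 and 821 UMIs. Libraries of 3' tags do not show which part of the gene the remaining 171 and 173 KO_DMSO UMIs came from. Clec7a lies at chr6:129461591-129472779 on the minus strand of GRCm38, where GENCODE M21 classes it as a polymorphic pseudogene.

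Genes past the fold were those at least 1.5-fold apart between KO_DMSO and WT_GW5074, among genes with at least 50 CPM in 1 of these libraries and at least 100 UMIs over both. Resident macrophages had 60 such genes of 3587, or 1.67%, with 34 higher in KO_DMSO (0.948%) and 26 lower (0.725%). Other macrophages had 105 of 3536, or 2.97%, with 36 higher (1.02%) and 69 lower (1.95%). The counting interval of each of these ratios excluded 1. Without shared barcodes the counts were 61 and 103. Most genes thus differed little between receptor loss and inhibitor, and the sizes were modest: at a 2-fold threshold 8 and 6 genes passed, Clec7a among them. The split of directions depended on the processing in both classes. Scaled by the median of ratios over genes in place of CPM, 64 were higher and 34 lower there, and 40 higher and 21 lower in the resident class. The resident split turned under several other settings, to 39 higher and 48 lower with the mean of CPM per cell, 124 and 150 with cells thinned to 1000 UMIs, and 47 and 54 without the deepest cells. It was 28 and 35 without cells with a UMI of Krt19, Htr2c, Lepr or Kcnip4 and 43 and 49 without cells with a UMI of S100a8 or S100a9, which were settings added after the data were seen.

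The same genes often passed in both classes. Of the genes higher in KO_DMSO, 19 were shared, 55.9% of the resident and 52.8% of the other list. Of those lower, 21 were shared, 80.8% of the resident and 30.4% of the other list. No gene passed in opposite directions among 3351 genes measured in both. The scatter of both classes shows this, with Fkbp5, Manf, Olr1 and Hspa5 at the upper right and H2-T23, Scd2, Hnrnph1 and Tgfbi at the lower left. Both classes come from the same libraries, so they are not independent of each other. S100a9 was the named gene that left the diagonal, lower in KO_DMSO resident cells and near equal in the other class.

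**Figure D1:**
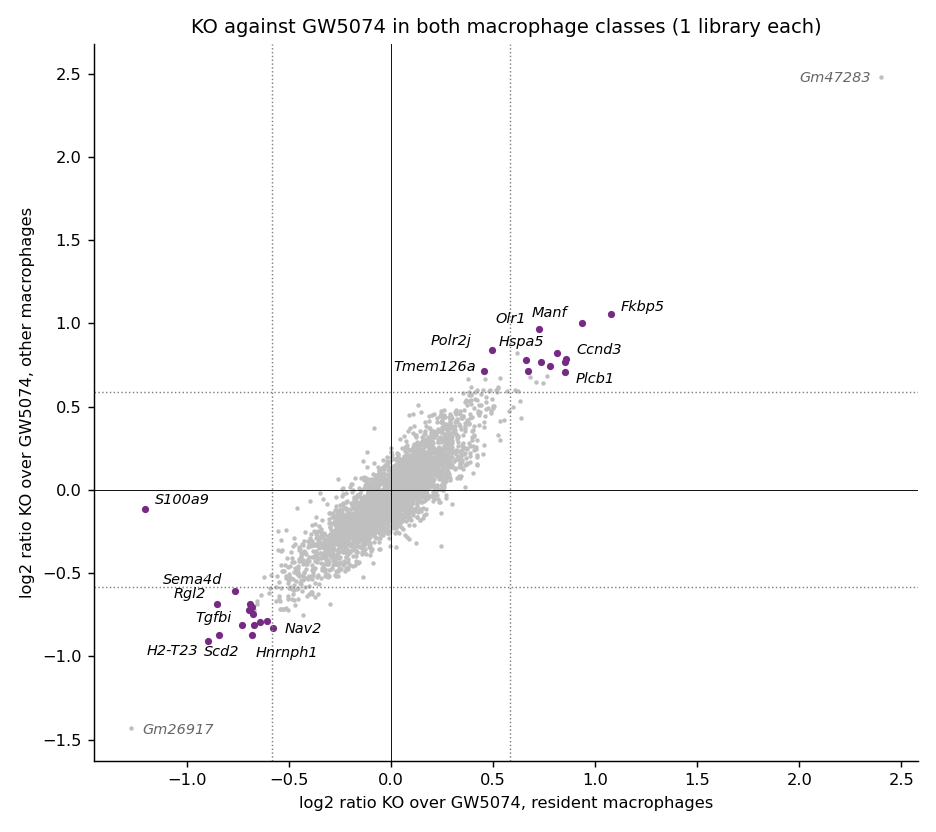
Each point is a gene measured in both classes, with the log2 ratio of KO_DMSO over WT_GW5074 in resident macrophages on the x axis and in other macrophages on the y axis. Purple points are named genes, dotted lines mark 1.5-fold, and Clec7a is off the plotted range; 19 genes lie past the upper and 21 past the lower threshold in both classes.

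The predicted genes Gm47283 and Gm26917 lie far out in that scatter and were singled out after their values were seen. Gm47283, on chromosome Y, was at 105 CPM in KO_DMSO resident macrophages, 19.9 CPM in WT_GW5074 and 15.6 CPM in WT_DMSO. Ddx3y, a Y-linked helicase gene, was at 72.0, 76.0 and 74.2 CPM in the same order. Gm26917, a lincRNA on chromosome 17, was at 165, 397 and 390 CPM. Both also differed in the other class, with log2 ratios of 2.48 and -1.43.

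The level in WT_DMSO lay nearer to WT_GW5074 than to KO_DMSO, on the log2 scale, for 32 of the 34 resident genes higher in KO_DMSO and all 26 lower ones. In the other class this was so for 30 of 36 and 63 of 69. Over all genes measured the same way, WT_DMSO was nearer to WT_GW5074 for 69.1% and 66.8%. Nearness alone does not place WT_DMSO between the others: it lay below both libraries for 24 of the 34 higher resident genes and above both for 12 of the 26 lower ones. In the other class it lay below both for 8 of 36 and above both for 31 of 69. The resident exceptions were Fkbp5 and Btg2. In the other class they were Fkbp5, Ccnd3, Btg2, Cd14, Fos and Pde4b on the higher side, where the inhibitor library was lowest. For these genes WT_DMSO was nearer to KO_DMSO but not always close to it, as for Fkbp5 at 144 CPM against 93.7 CPM in KO_DMSO. On the lower side the exceptions were Gm48099, Zc3h7a, Hivep3, Sema4d, Mmp14 and Lars2. These lists were formed after the values were seen.

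Fkbp5, a co-chaperone of steroid receptors and a classical glucocorticoid target, was at 109 CPM in KO_DMSO, 51.7 CPM in WT_GW5074 and 113 CPM in WT_DMSO resident macrophages. The ratio of KO_DMSO over WT_GW5074 was 2.11 (1.93 to 2.32). In other macrophages the levels were 93.7, 45.1 and 144 CPM, with a ratio of 2.08 (1.91 to 2.26). The inhibitor library was thus the low one in both classes. T cells had a Fkbp5 UMI in 5.46% of KO_DMSO, 5.04% of WT_GW5074 and 18.1% of WT_DMSO cells, so the KO_DMSO and WT_GW5074 shares in T cells were close to each other. Btg2, an antiproliferative early-response gene, was at 128, 70.8 and 100 CPM in resident macrophages, a ratio of 1.81 (1.67 to 1.96). It was at 125, 73.2 and 104 CPM in the other class. Here too WT_GW5074 was lowest, with WT_DMSO between the others. Ccnd3, which encodes cyclin D3, was at 256, 142 and 163 CPM in resident and 220, 128 and 214 CPM in other macrophages. In the other class WT_DMSO was close to KO_DMSO, and in the resident class it was closer to WT_GW5074.

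Endoplasmic reticulum chaperones formed the next group among the highest ratios. Hspa5, the chaperone BiP that binds unfolded proteins in the reticulum, was at 683 CPM in KO_DMSO, 389 CPM in WT_GW5074 and 390 CPM in WT_DMSO resident macrophages, a ratio of 1.76 (1.70 to 1.82). In other macrophages it was at 643, 364 and 398 CPM, a ratio of 1.77 (1.72 to 1.82). Manf, a secreted protein made under reticulum stress, was at 169, 88.2 and 86.2 CPM in the resident and 156, 77.8 and 78.4 CPM in the other class. Both genes were highest in the knockout in each class, and Hspa5 was slightly lower in WT_GW5074 than in WT_DMSO in the other class. The Manf ratios were 1.91 (1.78 to 2.05) and 2.01 (1.88 to 2.14). With cells thinned to 1000 UMIs the resident log2 ratio of Manf was 0.57, just under the threshold. Creld2, another reticulum protein induced by stress, was at 55.4, 33.3 and 30.4 CPM in resident and 53.4, 31.3 and 33.0 CPM in other macrophages.

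The list of the unfolded protein response was then read as a whole. To count as measured, a list member needed 10 CPM or more in KO_DMSO or WT_GW5074 and a sum of at least 30 UMIs. By that filter 77 of 8349 genes (0.922%) were higher and 173 (2.07%) lower in KO_DMSO resident macrophages, and 88 of 8376 (1.05%) and 259 (3.09%) in the other class. These shares are the background for every list count in this report. Of 20 measured members 4 were higher and 1 lower in resident macrophages, with a median log2 ratio of 0.20 beside -0.03 over all genes. In the other class 4 were higher and none lower, with a median of 0.16 beside -0.08. Dnajb9, a cochaperone of BiP, passed in resident cells at 51.0 and 32.8 CPM, and Sdf2l1, a reticulum protein, passed in the other class at 104 and 69.2 CPM. Atf4, the transcription factor of the PERK branch, went the other way, at 75.1 CPM in KO_DMSO, 116 CPM in WT_GW5074 and 119 CPM in WT_DMSO resident macrophages. Its log2 ratios were -0.62 and -0.52 in the 2 classes, so the chaperone genes and Atf4 did not move together.

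Promoters of this list were searched because several members were high together. The motif was the endoplasmic reticulum stress element, CCAAT and CCACG with any 9 bases between them, on both strands, in windows of 300 bases from 250 before to 50 after the start of each gene. It was present in 7 of the 20 list promoters given and in 37 of 27025 promoters of all genes (0.137%). These counts come from sequence alone, for an element named after the response of the list, and do not bear on KO_DMSO against WT_GW5074. The windows of Hspa5, at chr2:34771840-34772139 on the plus strand, and Creld2, at chr15:88819396-88819695 on the plus strand, are shown from RefSeq (GRCm38.p6), 5′ to 3′, with the match in capitals. In Creld2 the match reads on the opposite strand.
Hspa5: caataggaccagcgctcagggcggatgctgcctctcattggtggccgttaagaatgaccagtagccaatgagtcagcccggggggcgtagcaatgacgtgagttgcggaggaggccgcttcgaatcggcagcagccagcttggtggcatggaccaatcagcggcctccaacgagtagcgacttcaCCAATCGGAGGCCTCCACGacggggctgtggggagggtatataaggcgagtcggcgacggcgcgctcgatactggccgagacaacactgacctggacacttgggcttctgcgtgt
Creld2: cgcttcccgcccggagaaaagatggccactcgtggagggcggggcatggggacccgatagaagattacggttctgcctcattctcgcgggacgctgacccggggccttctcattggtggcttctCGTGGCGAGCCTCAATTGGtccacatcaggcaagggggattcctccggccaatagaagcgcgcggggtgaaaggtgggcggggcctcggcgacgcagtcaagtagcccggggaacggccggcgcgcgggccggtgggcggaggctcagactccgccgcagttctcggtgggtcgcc
The 7 measured genes with the motif had median log2 ratios of 0.26 in resident and 0.26 in other macrophages, with 6 of 7 above 0 in each class. The 10 without it had medians of 0.05 and 0.12. Manf, the list member with the highest ratio in each class, had no promoter given and is in neither set. The sets thus do not cover every measured member of the list. The spread within both sets was wide, from Canx at -0.14 to Hspa5 at 0.81 with the motif and from Atf4 at -0.62 to Dnajb9 at 0.64 without it in resident cells. A match of letters is a description and not a measured binding site.

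Cytosolic heat shock genes were also high in the knockout. Of 16 measured members 4 were higher and none lower in each class, with medians of 0.35 and 0.36. Hspa8, the constitutive chaperone Hsc70, was at 1202 CPM in KO_DMSO, 708 CPM in WT_GW5074 and 641 CPM in WT_DMSO resident macrophages, and at 1168, 726 and 649 CPM in the other class. Hsph1, which exchanges nucleotide on such chaperones, was at 38.2, 19.4 and 22.3 CPM in resident and 41.2, 20.1 and 23.5 CPM in other macrophages. Its ratios of 1.97 (1.69 to 2.29) and 2.05 (1.81 to 2.33) were the highest of the list. Dnaja1 passed in resident cells at 91.3 and 60.4 CPM, and Hsp90aa1 in the other class at 201 and 131 CPM. Hspe1, a mitochondrial cochaperone, was at log2 -0.22 and -0.11. Ubb, a polyubiquitin gene, was at 874, 553 and 541 CPM in resident and 947, 551 and 549 CPM in other macrophages. The wild-type libraries were alike for Ubb, and the knockout was 1.58-fold (1.53 to 1.63) and 1.72-fold (1.68 to 1.76) above the inhibitor.

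Genes beside Clec7a on chromosome 6 stood out most. Clec1b, which encodes the platelet and myeloid lectin CLEC-2, lies beside it at chr6:129397297-129409335. It was at 68.2 CPM in KO_DMSO, 12.9 CPM in WT_GW5074 and 12.3 CPM in WT_DMSO resident macrophages, a ratio of 5.28 (4.49 to 6.24), and at 43.8, 10.3 and 6.69 CPM in the other class. Clec1a, the lectin gene next to Clec7a at chr6:129424772-129452000, was at 31.8, 3.97 and 3.35 CPM in resident macrophages, a ratio of 8.003 (6.02 to 10.8). In other macrophages it was at 37.4, 2.85 and 2.59 CPM, a ratio of 13.1 (10.1 to 17.2). Both lectin genes were low in the 2 wild-type libraries and several-fold higher in the knockout library. A Clec1b UMI was found in 18.7% of KO_DMSO and 3.88% of WT_GW5074 resident macrophages, or 6.65% and 1.56% with cells thinned to 1000 UMIs, and in 0.546% of KO_DMSO T cells.

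Olr1, on the other side at chr6:129485244-129507165, encodes LOX-1, a receptor for oxidized lipoprotein. It was at 597 CPM in KO_DMSO, 361 CPM in WT_GW5074 and 352 CPM in WT_DMSO resident macrophages, a ratio of 1.65 (1.59 to 1.71), and at 420, 215 and 182 CPM in the other class, a ratio of 1.96 (1.88 to 2.03). Clec9a, a dendritic cell lectin for dead cells whose annotation overlaps that of Clec1b, was at 14.4, 6.14 and 6.39 CPM in resident and 13.9, 8.61 and 5.99 CPM in other macrophages. Reads of overlapping genes may be split by the authors' counting, which makes the Clec9a and Clec1b levels uncertain. Within 1 Mb, 4 of 10 measured genes passed in each class, all higher. Within 5 Mb these were 4 of 53 with 2 lower in resident cells and 4 of 52 with 1 lower in the other class, and on the whole chromosome 7 higher and 8 lower of 408, and 4 higher and 9 lower of 411. Clec12a and Gabarapl1, which flank this group, had log2 ratios of 0.04 and 0.41 in resident cells. The high genes thus lay in the interval next to the targeted gene. The structure of the knockout allele was not given in the sources used here, and its part in these levels was not tested.

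**Figure D2:**
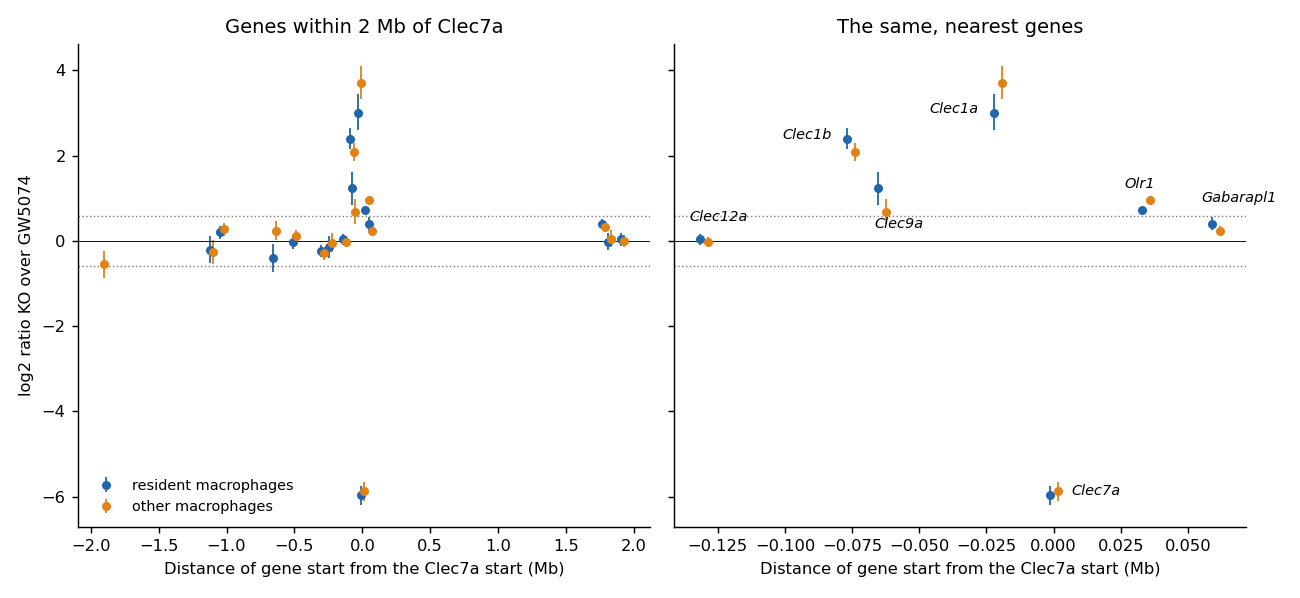
The log2 ratio of KO_DMSO over WT_GW5074 (y axis) is plotted for genes by the distance of their start from the Clec7a start in Mb (x axis), in resident (blue) and other (orange) macrophages, within 2 Mb on the left and for the nearest genes on the right. Points of the classes are set slightly apart sideways, bars are exact 95% counting intervals, and dotted lines mark 1.5-fold; Clec1a, Clec1b, Clec9a and Olr1 lie above the line in both classes.

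Fabp1, Cidec and Ear1 of the resident alveolar macrophage markers and Htr2c of a Krt19-positive state were among the highest resident genes, beside Egfem1. Of 19 measured markers of that resident list, 4 were higher in KO_DMSO resident macrophages and none lower, with 15 above 0 and a median of 0.23. Of all genes by the list filter, 0.922% were higher and 2.07% lower there. In the other class none of 18 passed the threshold, 14 were above 0 and the median was 0.18. Egfem1 was at 112 CPM in KO_DMSO, 45.4 CPM in WT_GW5074 and 38.2 CPM in WT_DMSO, a ratio of 2.46 (2.24 to 2.71). Fabp1, a fatty acid carrier, was at 61.0, 25.8 and 14.4 CPM, a ratio of 2.36 (2.08 to 2.69). Htr2c, a serotonin receptor, was at 139, 75.2 and 24.2 CPM, and Cidec, a protein of lipid droplets, at 65.0, 37.8 and 13.1 CPM. These genes stepped up from WT_DMSO through WT_GW5074 to KO_DMSO. Ear1, a ribonuclease gene, was at 86.5, 45.5 and 54.6 CPM. Ear1 is a close copy of Ear2, a gene of the class rule, and how reads were divided between such copies was not stated.

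The Krt19-state list had 2 of 11 measured members higher in resident macrophages, Htr2c and the leptin receptor gene Lepr, and none lower, with a median of 0.35. Of all genes by the list filter, 0.922% were higher there. Lepr was at 38.9, 19.8 and 6.80 CPM. Spp1, which encodes osteopontin and belongs to the list, was at -0.19 on the log2 scale. A Krt19 UMI was found in 16.2% of KO_DMSO, 11.6% of WT_GW5074 and 5.17% of WT_DMSO resident macrophages, or 7.86%, 5.33% and 1.79% when thinned. Cells with a Krt19 UMI were thus more frequent in the knockout library. Resident cells with no UMI of Krt19, Htr2c, Lepr or Kcnip4 were 2063 of 3591 in KO_DMSO and 2529 of 4302 in WT_GW5074. These shares were close, without thinning. Whether the state itself was more frequent was not tested. T cells had a Krt19 UMI in 0 of 183 cells in KO_DMSO and in 0.719% of cells in WT_GW5074. Without cells that had a UMI of Krt19, Htr2c, Lepr or Kcnip4, a setting added after the data were seen, the log2 ratio of Egfem1 was 0.61 in place of 1.30, that of Fabp1 0.82 in place of 1.24 and that of Ear1 0.54 in place of 0.93. The ratio of Cidec was 0.88 in place of 0.78. Ear1 then missed the threshold.

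Of all genes by the list filter, 0.922% were higher in resident and 1.05% in other macrophages. Lipid handling genes had 5 of 30 measured members higher and none lower in resident macrophages, with a median of 0.07. In the other class 2 of 28 were higher. Beside Fabp1, Cidec and Olr1 these included Pnpla2, the triglyceride lipase ATGL, at 71.0, 41.3 and 37.9 CPM in resident and 64.6, 38.6 and 40.7 CPM in other macrophages. Acaa1b, a peroxisomal thiolase, passed at 17.2, 9.97 and 4.06 CPM in resident cells. Lpl, lipoprotein lipase, was lowest at log2 -0.45 and -0.51. Cholesterol synthesis genes were mostly below 0, at 22 of 26 in resident and 20 of 25 in other macrophages, with medians of -0.24 and -0.26. Of all genes by the same filter, 4687 of 8349 and 5352 of 8376 were below 0. Of the list, 1 member passed the threshold in each class. That member was Scd2, a fatty acid desaturase gene, at 31.9, 57.2 and 50.4 CPM in resident and 29.1, 53.1 and 43.8 CPM in other macrophages. Srebf1, a regulator of lipid synthesis genes, was at 25.3 and 37.9 CPM in resident macrophages, a log2 ratio of -0.58, just short of the threshold.

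Other genes high in the knockout were spread over functions. Plcb1, a phospholipase C that acts below G protein-coupled receptors, was at 347 CPM in KO_DMSO, 192 CPM in WT_GW5074 and 203 CPM in WT_DMSO resident macrophages, and at 199, 122 and 127.5 CPM in the other class. Polr2j, a subunit of RNA polymerase II, was at 72.6, 40.5 and 41.8 CPM in other macrophages. Tmem126a, a mitochondrial protein gene, was at 61.8, 37.7 and 40.9 CPM, and Filip1l at 75.9, 46.2 and 50.9 CPM there. For each the wild-type libraries were close to one another and the knockout was above both. In resident macrophages the ratios of Polr2j and Tmem126a were 1.41 (1.27 to 1.55) and 1.37 (1.23 to 1.52), under the threshold.

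Among the genes lower in the knockout, H2-T23 was low in both classes. It encodes Qa-1, a nonclassical MHC class I molecule read by natural killer and CD8 T cells, and lies at chr17:36029773-36032855. It was at 85.5 CPM in KO_DMSO, 159 CPM in WT_GW5074 and 181 CPM in WT_DMSO resident macrophages, 1.86-fold lower than the inhibitor (1.73 to 2.005). In other macrophages it was at 109, 204 and 207 CPM, 1.87-fold lower (1.77 to 1.99). T cells showed a like order, with an H2-T23 UMI in 13.1%, 25.9% and 36.1% of cells at median depths of 1166, 821 and 1464 UMIs. The class I list had 1 of 17 members lower in resident and 2 of 17 in other macrophages, the second being the peptide transporter gene Tap2 at 28.2 and 44.5 CPM, and none higher. Its medians were -0.27 and -0.15. B2m, the shared light chain, was at log2 0.26 and 0.37, so the list did not move as a block.

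Tgfbi, a secreted matrix protein induced by TGF-β, was among the lower genes in both classes. It was at 705 CPM in KO_DMSO, 1170 CPM in WT_GW5074 and 1107 CPM in WT_DMSO resident macrophages, 1.66-fold lower than the inhibitor (1.62 to 1.70). In other macrophages it was at 715, 1256 and 1272 CPM, 1.76-fold lower (1.72 to 1.80). The wild-type libraries were close to each other. Prkcd, the kinase PKCδ that passes the Dectin-1 signal from Syk to Card9, was at 166, 267 and 282 CPM in resident and 190.5, 310.5 and 308 CPM in other macrophages. It was 1.61-fold (1.52 to 1.70) and 1.63-fold (1.56 to 1.70) lower in the knockout than under the inhibitor. Marcks, a substrate of protein kinase C, was at 84.4, 136 and 138 CPM in resident cells.

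Prkcd was the only member of the Dectin-1 signalling list past the threshold, of 24 measured in resident and 25 in other macrophages, with medians of -0.12 and -0.13. Syk, the proximal kinase, was at 321, 330 and 331 CPM in resident macrophages and 301, 320 and 336 CPM in the other class. Card9 was at 25.1, 28.0 and 27.7 CPM in resident macrophages. Syk and Card9 transcripts below the missing receptor were thus close to their levels under the inhibitor. Of the kinases and feedback genes of the MEK-ERK cascade, 1 of 19 passed in resident macrophages, Phlda1, a gene induced by growth factor signalling, at 18.9, 11.6 and 8.01 CPM, and none of 19 in the other class. The medians were 0.01 and -0.18. Dusp6, which feeds back on ERK, was at 16.8, 21.9 and 31.8 CPM in other macrophages. Transcript levels do not measure the activity of these kinases.

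Other genes on the lower side belonged to no list. Hnrnph1, a splicing regulator, was at 75.6 CPM in KO_DMSO, 121 CPM in WT_GW5074 and 117 CPM in WT_DMSO resident macrophages and at 61.3, 112 and 126 CPM in the other class. Hnrnpa0, another RNA binding protein gene, was at 61.1, 105 and 107 CPM in the other class. Each was lowest in the knockout. Tcirg1, a subunit of the proton pump of lysosomes, was at 118, 191 and 185 CPM, Rgl2, an exchange factor for Ral, at 34.5, 62.3 and 61.3 CPM, and Sema4d, a semaphorin, at 38.1, 64.6 and 67.1 CPM in resident macrophages. Sema4a, another semaphorin, was 1.59-fold (1.47 to 1.73) and 1.75-fold (1.62 to 1.89) lower in the knockout in the 2 classes. The genes lower in KO_DMSO had transcripts richer in G and C, with a median of 53.6% in resident and 53.5% in other macrophages against 48.7% and 48.8% over all genes measured. For the genes higher in KO_DMSO the medians were 48.4% and 51.2%. Across genes the log2 ratio went down with GC content, at Spearman rho -0.23 over 3586 and -0.16 over 3535 genes, which share these libraries and are not independent replicates. For transcript length rho was 0.05 in resident and -0.17 in other macrophages. The parts of base composition and transcript length in these differences were not tested.

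**Figure D3:**
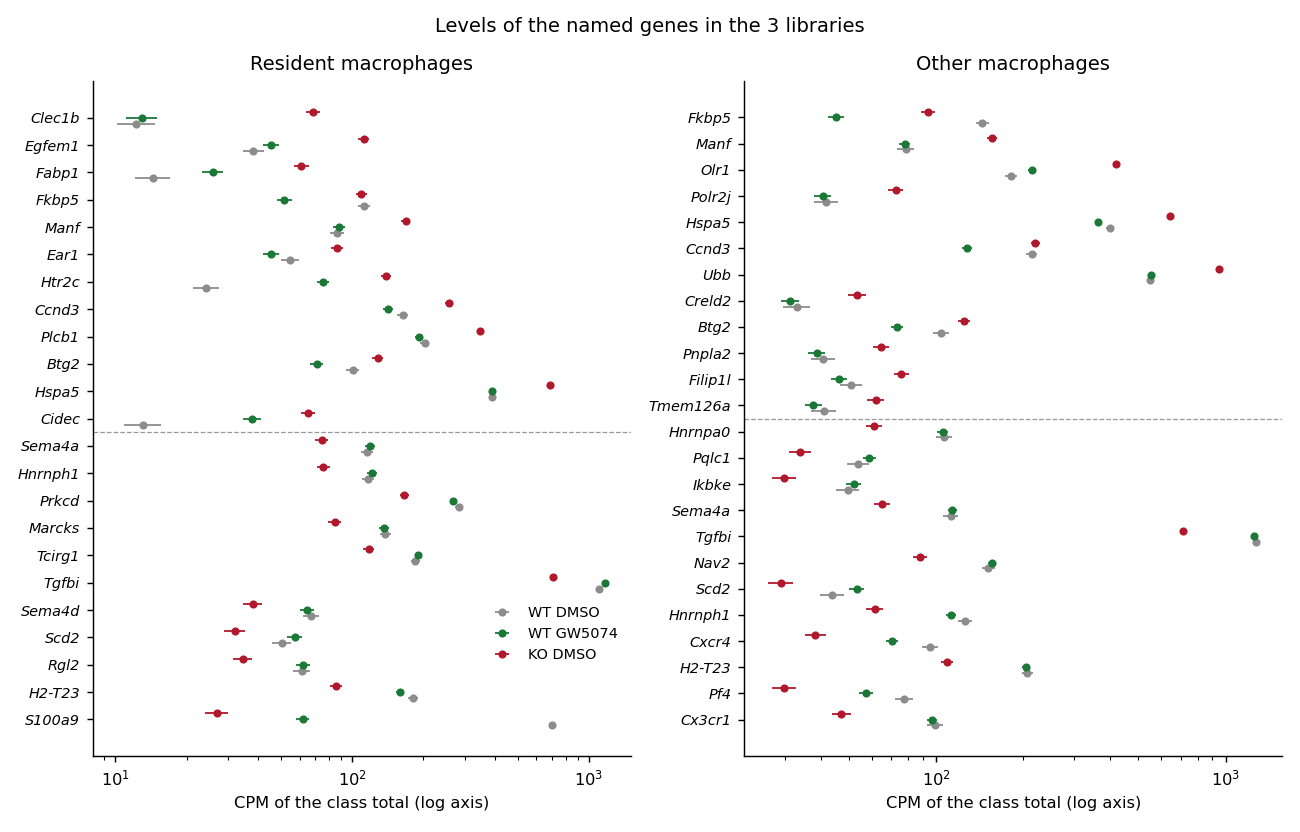
Levels of the named genes in CPM of the class total, on a log axis, are shown for resident macrophages on the left and other macrophages on the right, with 1 point per library (grey WT_DMSO, green WT_GW5074, red KO_DMSO) and bars for exact 95% counting intervals. Genes above the dashed line were higher and those below it lower in KO_DMSO, and the grey and green points can lie together, as for Hspa5 at 390 and 389 CPM in resident macrophages, or apart, as for S100a9 at 701 and 61.7 CPM.

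In the other macrophages the lower genes included the chemokine receptor genes Cx3cr1, Cxcr4 and Ccr2 and the chemokine gene Pf4. Cx3cr1 and Pf4 are on the list of monocyte-derived macrophage markers, and Ccr2 is on the monocyte list. Cx3cr1, the fractalkine receptor, was at 47.1 CPM in KO_DMSO, 96.9 CPM in WT_GW5074 and 99.2 CPM in WT_DMSO, 2.06-fold lower than the inhibitor (1.89 to 2.25). Pf4, platelet factor 4, was at 29.8, 57.2 and 77.5 CPM, and Cxcr4, the receptor of CXCL12, at 38.3, 70.4 and 95.1 CPM. Ccr2, the receptor that draws monocytes from blood, was at 175, 264 and 350.5 CPM. These stepped down from WT_DMSO to WT_GW5074 to KO_DMSO, and Cx3cr1 only at the last step. A Cx3cr1 UMI was found in 10.2% of KO_DMSO and 17.4% of WT_GW5074 other macrophages, or 4.30% and 8.79% thinned, and in 2.19% and 3.60% of T cells. In resident macrophages the shares were 4.71% and 8.51%, or 1.52% and 3.30% thinned, so this difference was not particular to the other class. Of 19 measured markers of monocyte-derived macrophages 4 were lower and 1 higher, Cd14, a coreceptor for lipopolysaccharide, at 133, 83.4 and 117.5 CPM. Of all genes by the list filter, 3.09% were lower and 1.05% higher in this class. Stab1, a scavenger receptor, was at 23.8, 36.5 and 42.1 CPM and Mmp14, a membrane metalloprotease, at 217, 328 and 249.9 CPM. C1qb, of complement, was at 1420, 1148 and 1318 CPM, so the marker list did not shift as a whole, with a median of -0.16. In resident macrophages 2 of 17 measured markers of this list were lower and none higher, with a median of -0.21. The medians over all genes were -0.08 in the other and -0.03 in the resident class. Of 6 measured monocyte markers in the other class, 1 was lower, Ccr2, and none was higher. Of these 6, 3 were above 0 and the median was -0.01.

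The profibrotic macrophage list had 5 of 25 members lower and none higher in the other class, with a median of -0.15. In the resident class 1 of 24 was lower. Of all genes by the list filter, 3.09% were lower in the other and 2.07% in the resident class. Their medians were -0.08 and -0.03. Pdgfb, a growth factor for fibroblasts, was at 15.8, 32.5 and 25.4 CPM in other macrophages, 2.05-fold lower than the inhibitor (1.77 to 2.39). Arg1, arginase 1, was at 72.4, 113 and 386 CPM, and Thbs1, thrombospondin 1, which activates latent TGF-β, at 23.3, 37.0 and 86.4 CPM. For Arg1 and Thbs1 the knockout and inhibitor libraries were both far below WT_DMSO, with the knockout lower. Neutrophil markers summed to 3547 CPM in this class of WT_DMSO and 502 CPM in KO_DMSO, and their part in the reference level was not tested. Other lower genes were Nav2 at 88.0, 156 and 152 CPM, Ikbke, an NF-κB and interferon pathway kinase, at 29.9, 51.9 and 49.5 CPM, and Pqlc1 at 33.9, 58.8 and 53.8 CPM.

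S100a9, a calcium-binding protein of neutrophils and monocytes, was at 26.8 CPM in KO_DMSO, 61.7 CPM in WT_GW5074 and 701 CPM in WT_DMSO resident macrophages, and at 78.4, 85.1 and 1157 CPM in the other class. Its partner S100a8 was at 278, 262 and 1334 CPM in resident macrophages. The pair did not move together between the knockout and the inhibitor. A S100a9 UMI was found in 2.56% of KO_DMSO and 3.91% of WT_GW5074 resident macrophages, beside 1.64% and 2.88% of T cells, and the macrophage shares lay within the counting intervals of the T cell shares.

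Immediate early and inflammatory genes were divided. In resident macrophages 4 of 21 measured early genes were higher and 1 lower, and in the other class 2 of 22 and 1. The shares over all genes were 0.922% higher and 2.07% lower in resident, and 1.05% and 3.09% in other macrophages. Fos was at 211 CPM in KO_DMSO, 126 CPM in WT_GW5074 and 161 CPM in WT_DMSO resident macrophages, and at 237.5, 152 and 245 CPM in the other class. Egr2, a zinc finger factor of alternatively activated macrophages, went the other way at 18.4, 38.3 and 28.4 CPM in resident and 16.1, 34.0 and 31.5 CPM in other macrophages, 2.08-fold (1.78 to 2.44) and 2.12-fold (1.82 to 2.46) lower in the knockout. Irf4, another factor of that state, was at 5.38, 11.8 and 9.44 CPM in resident cells. Retnla, a marker of alternative activation, was at 2.04, 16.8 and 10.4 CPM there. The knockout was lowest for all 3. The KO_DMSO level of Retnla rests on few UMIs. The alternative activation list as a whole had 3 of 13 measured members lower and none higher in resident macrophages, with 6 above 0 and a median of -0.12. Its summed level there was higher in KO_DMSO, at 5264 CPM against 4650 CPM in WT_GW5074. In the other class 3 of 13 were lower and none higher, and the lowest log2 ratio of a measured member was -1.08, against -3.04 in the resident class.

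Chemokine genes were divided. Of 5 measured CXC chemokines and receptors, 1 was higher and none lower in resident macrophages, and 1 was higher and 2 lower in the other class. In each class 4 of the 5 were below 0, with medians of -0.27 and -0.36. The shares over all genes were those given for the early genes above. Cxcl2, which attracts neutrophils, was at 38.6 CPM in KO_DMSO, 10.5 CPM in WT_GW5074 and 30.1 CPM in WT_DMSO resident macrophages, a ratio of 3.69 (3.06 to 4.47). In other macrophages it was at 47.9, 12.9 and 47.3 CPM, a ratio of 3.71 (3.23 to 4.27). Ccl3, a chemokine for monocytes, was at 45.5, 23.5 and 44.9 CPM and Tnf, tumour necrosis factor, at 18.6, 10.6 and 15.5 CPM in other macrophages. For Cxcl2, Ccl3 and Tnf the knockout matched or slightly exceeded WT_DMSO by level, and the inhibitor library was low. The list of CC chemokines and receptors had none of 12 members higher and 2 lower in resident macrophages, and 2 of 16 higher and 2 lower in the other class, with medians of 0.15 and 0.22. The inflammatory cytokine list had 2 higher and 3 lower of 22 in the other class, Osm and Il1rn among the lower. In resident macrophages it had 1 higher and 3 lower of 20. The glucocorticoid list, with Fkbp5 at its top, had 2 higher and 2 lower of 12 in resident macrophages and a median of 0.18. In the other class 1 was higher and 1 lower of 11, with a median of 0.17. The summed level of this list was lower in KO_DMSO than in WT_GW5074, at 1787 and 2079 CPM in resident and 1812 and 2219 CPM in other macrophages. Tsc22d3, the leucine zipper GILZ of that list, was at 82.6, 55.2 and 79.2 CPM in resident cells, a ratio of 1.49 (1.36 to 1.64), and Dusp1, a phosphatase that turns off MAP kinases, at 48.6, 31.7 and 68.0 CPM.

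**Figure D4:**
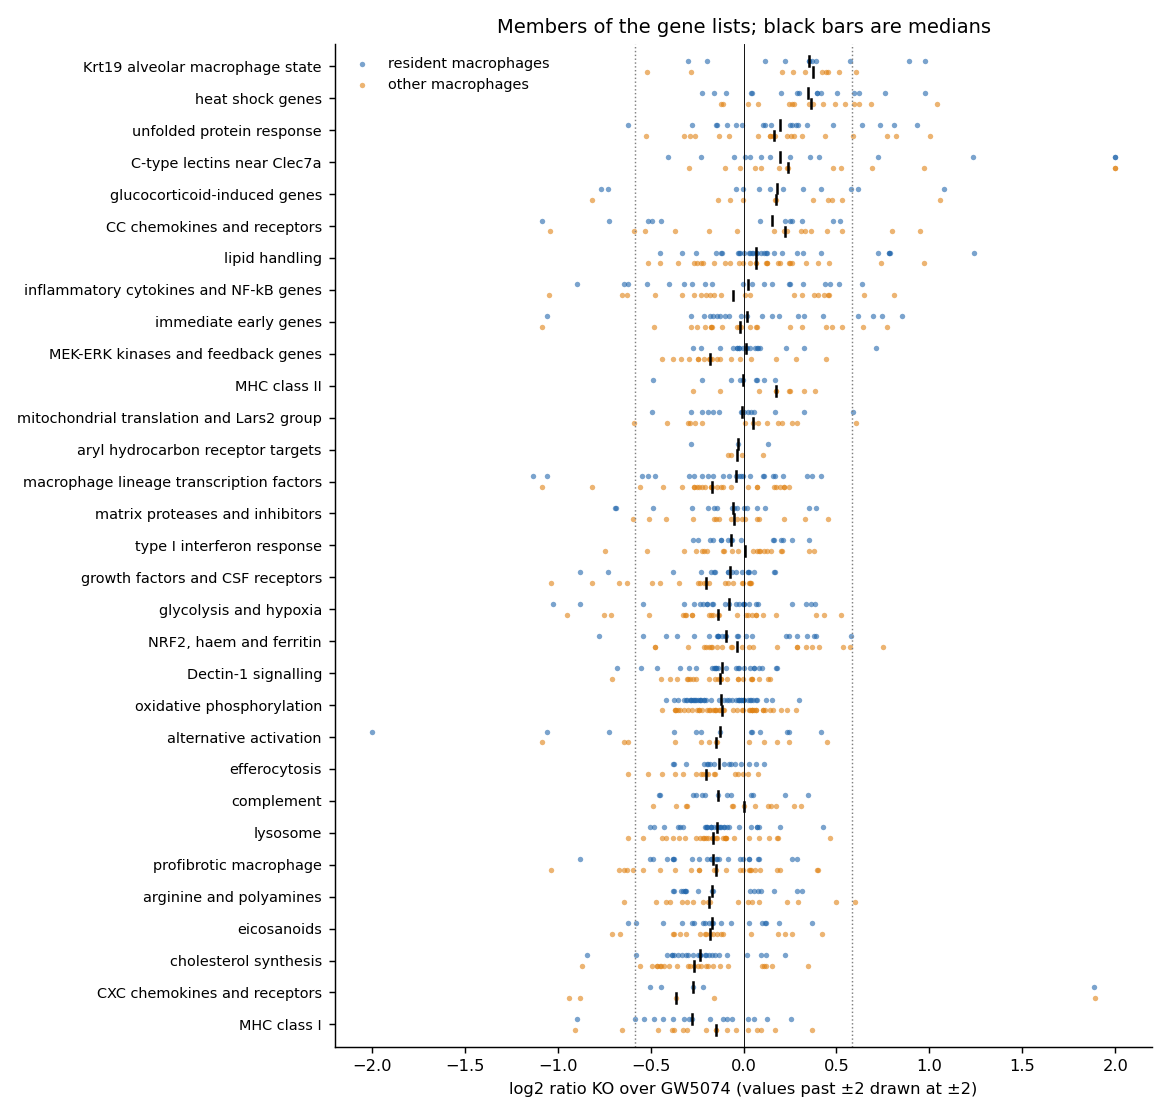
Each point is a measured member of a gene list, at its log2 ratio of KO_DMSO over WT_GW5074 (x axis, values past 2 drawn at 2 on either side), in resident (blue) and other (orange) macrophages. Black bars are medians and dotted lines mark 1.5-fold; heat shock genes, at medians of 0.35 and 0.36, lie to the right, and cholesterol synthesis genes, at -0.24 and -0.26, to the left.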

How the data were processed

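Single-cell RNA-seq counts of 3 libraries were used. The authors deposited UMI counts per gene and cell barcode, made with Cell Ranger 2.1.1 and the mm10 genome per the submitters' processing notes. Per the labels' protocols cells were loaded on a SeekOne chip, while a sample description names 10x Genomics, so the platform is uncertain. Every deposited barcode held at least 500 UMIs, so a filter had been applied before deposit.

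Cells were kept and divided by the rules in the report, and 50, 17 and 36 barcodes of WT_DMSO, WT_GW5074 and KO_DMSO were removed. UMIs were summed over the cells of a class in a library and divided by the class total (CPM). With 1 library a group there was no test. Exact Poisson, conditional binomial and Clopper-Pearson intervals cover counting error only. Genes named were the 12 highest and 12 lowest ratios of each class, up to 3 highest and 3 lowest measured members of each list, the markers, and genes near Clec7a. The ranking skipped Clec7a, the class rule's own genes, sex-linked and predicted genes, antigen receptor genes, globins, and genes of ribosomes and mitochondrial DNA. The comparison, its members and the lists were chosen with earlier results of these data known. Some named genes are not reported here. No doublet caller was run. As an alternative the deepest 10% of cells were left out, and others changed the scaling, filters, class rules and depth. Settings without Krt19-state cells or without cells with S100a8 or S100a9 were added after the data were seen. Positions came from GENCODE M21 (GRCm38), which matched 32236 of 32286 gene IDs, and promoters from RefSeq (GRCm38.p6). Scripts used Python 3.11.15, numpy 2.4.6, scipy 1.17.1, pandas 2.3.3 and matplotlib 3.10.9 and were tested on simulated data.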

Additional observations from a re-analysis of the deposited data

How the results depend on the processing

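No paired analysis was possible because each group is 1 library, and for the same reason no replicate could be left out. The number of genes past 1.5-fold, 60 in resident and 105 in other macrophages, depended most on the filter and the threshold. It was 250 and 347 with a filter of 10 CPM and 30 UMIs, 3312 and 3927 with no filter, and 8 and 6 at 2-fold. In resident macrophages it was 274 with cells thinned to 1000 UMIs, 101 without the deepest cells and 92 without cells that had a UMI of S100a8 or S100a9. The ratio of resident shares, 1.28, was 1.44 with the stricter class rule, 1.35 with a Lyz2 minimum of 1% and 1.35 without the deepest cells. The ratio of other macrophages, 0.814, was 0.777, 0.850 and, thinned, 0.902. Of the named genes, 22 of 24 in the resident and 24 of 24 in the other class were past 1.5-fold under every setting run, Manf (thinned) and Ear1 (without Krt19-state cells) being the exceptions. The median of the CC chemokine list in resident macrophages, 0.15, was -0.046 thinned and -0.0053 without cells with S100a8 or S100a9. The causes were not tested. Low genes are limited by depth, and counting intervals do not cover differences between mice or runs.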

Other observations

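Several lists not described above are given here by the same counts. Of all genes by the list filter, 0.922% were higher and 2.07% lower in resident macrophages, and 1.05% and 3.09% in the other class. At such shares a short list can have no member past the threshold. No measured member of the 44 oxidative phosphorylation genes or the 13 complement genes passed 1.5-fold in either class. Of the oxidative phosphorylation genes 34 were below 0 in resident and 28 in other macrophages. Their median was -0.12 in each class, beside -0.03 and -0.08 over all genes. MHC class II genes had 0 of 9 past the threshold in each class, with medians of -0.002 in resident and 0.18 in other macrophages. Of 25 genes of glycolysis and hypoxia, 2 were lower in resident and 3 in other macrophages and none was higher. Slc16a3, a lactate exporter, was at 21.03 CPM in KO_DMSO, 38.6 CPM in WT_GW5074 and 42.3 CPM in WT_DMSO resident macrophages, and at 20.5, 39.6 and 44.3 CPM in the other class. Among the lysosome genes 0 of 29 passed in resident cells and 1 of 29 in the other class, Psap, a saposin precursor, at 5769, 8886 and 8391 CPM. In each class 23 of these 29 genes were below 0, with medians of -0.14 in resident and -0.16 in other macrophages.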
